A study of Mus musculus with 4 samples.

Results

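Matrix metalloproteinases are zinc enzymes that cut collagens and other proteins of the extracellular matrix, and the tissue inhibitors of metalloproteinases (TIMPs) bind and block them. The 9 genes described here were Mmp2, Mmp3, Mmp10, Mmp13, Mmp14, Timp1, Timp2, Timp3 and Timp4, chosen by the gene name that the array design gives each probe, out of 27594 genes with a value. They had 11 probes in all, since Mmp14 and Timp1 had 2 probes each. RNA came from ilium, femur, maxilla and mandible of male C57BL/6 mice aged 35 days, with no treatment or engineered allele named. Each bone had 1 one-colour Agilent array, and the number of mice behind each RNA is not stated in the labels. The study compared these bones as sources of graft material. Here the maxilla and mandible (jaw bones) were set against the ilium and femur (trunk and limb bones), and then each bone against the other of its class.

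Most metalloproteinases are made as inactive proenzymes and work only after the propeptide is released. At the cell surface Mmp14 and Timp2 together hold the Mmp2 proenzyme, which Mmp14 then activates, so that Timp2 takes part in activation as well as inhibition. Mmp13 is the interstitial collagenase of mouse growth plate cartilage and of bone-forming cells. Mmp3 and Mmp10 are the closely related stromelysins, and Timp3 differs from the other inhibitors in being bound to the matrix.

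The genes Mmp13, Mmp3 and Mmp10 lie in 1 metalloproteinase cluster on chromosome 9, and the sequence before their starts is shown because they share motifs there, while their levels in the 4 bones did not run in parallel. The lines give the 120 bases before the annotated start, 5′ to 3′ on the gene's strand (the plus strand in each), from RefSeq promoters on build GRCm38.p6, at chr9:7272394-7272513 for Mmp13, chr9:7445702-7445821 for Mmp3 and chr9:7502222-7502341 for Mmp10. Capitals mark the letters of the AP-1 motif (TGANTCA, the same on both strands), the TATA motif (TATAAA) and the RUNX motif (AACCACA), each searched on both strands, with no overlap among the matches.
Mmp13: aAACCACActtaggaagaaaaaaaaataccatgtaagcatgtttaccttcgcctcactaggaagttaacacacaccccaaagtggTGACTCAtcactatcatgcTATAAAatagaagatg
Mmp3: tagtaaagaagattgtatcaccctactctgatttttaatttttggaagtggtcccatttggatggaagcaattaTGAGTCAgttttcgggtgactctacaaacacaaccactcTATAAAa
Mmp10: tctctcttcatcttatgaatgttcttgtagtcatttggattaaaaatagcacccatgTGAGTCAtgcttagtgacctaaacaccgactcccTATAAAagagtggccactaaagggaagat

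The AP-1 match began 35 bases before the start of Mmp13, 46 before that of Mmp3 and 63 before that of Mmp10, and each of the 3 genes also held the TATA letters. AP-1 is the dimer of Fos and Jun proteins, through which cytokines and growth factors are known to induce these genes. Over all 32851 promoters of the table, the 250 bases before the start held the AP-1 letters in 6.75%, the TATA letters in 12.4% and both in 1.21%. The RUNX letters, recognised by the bone transcription factor Runx2, occurred 119 bases before the start of Mmp13 and in 4.4% of all promoters. Promoters of 8 of the 9 genes were in the table. In the 250 bases before the starts of Mmp14, Timp1, Timp2, Timp3 and Timp4 none of the 3 motifs was found, which says only that these letters are not in this window.

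Values are log2 signals from which the log2 of their own array's 75th percentile was subtracted, so that 0 is the 75th percentile and a step of 1 is a doubling. Between 72.8% and 75.5% of spots were well above background, and 0 were saturated. Repeated spots of one probe differed by a median SD of 0.0611 to 0.0832 within an array (probes printed 5 or more times), which is technical error, while each probe of the 9 genes was printed in 1 spot. Of the 9 genes, 8 were well above background in all 4 bones. The 8 osteoblast and osteocyte markers on the array, chosen as markers of the labelled tissue, were also well above background in every bone. RNA of other tissues was present too. The summed signal of 7 tooth matrix genes was 95.6 and 258 times the 75th percentile in the maxilla and mandible and at most 0.38 in the other bones. For 6 red cell genes the sum was 243 (ilium), 269 (femur), 30.0 (maxilla) and 44.8 (mandible).

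**Figure D1:**
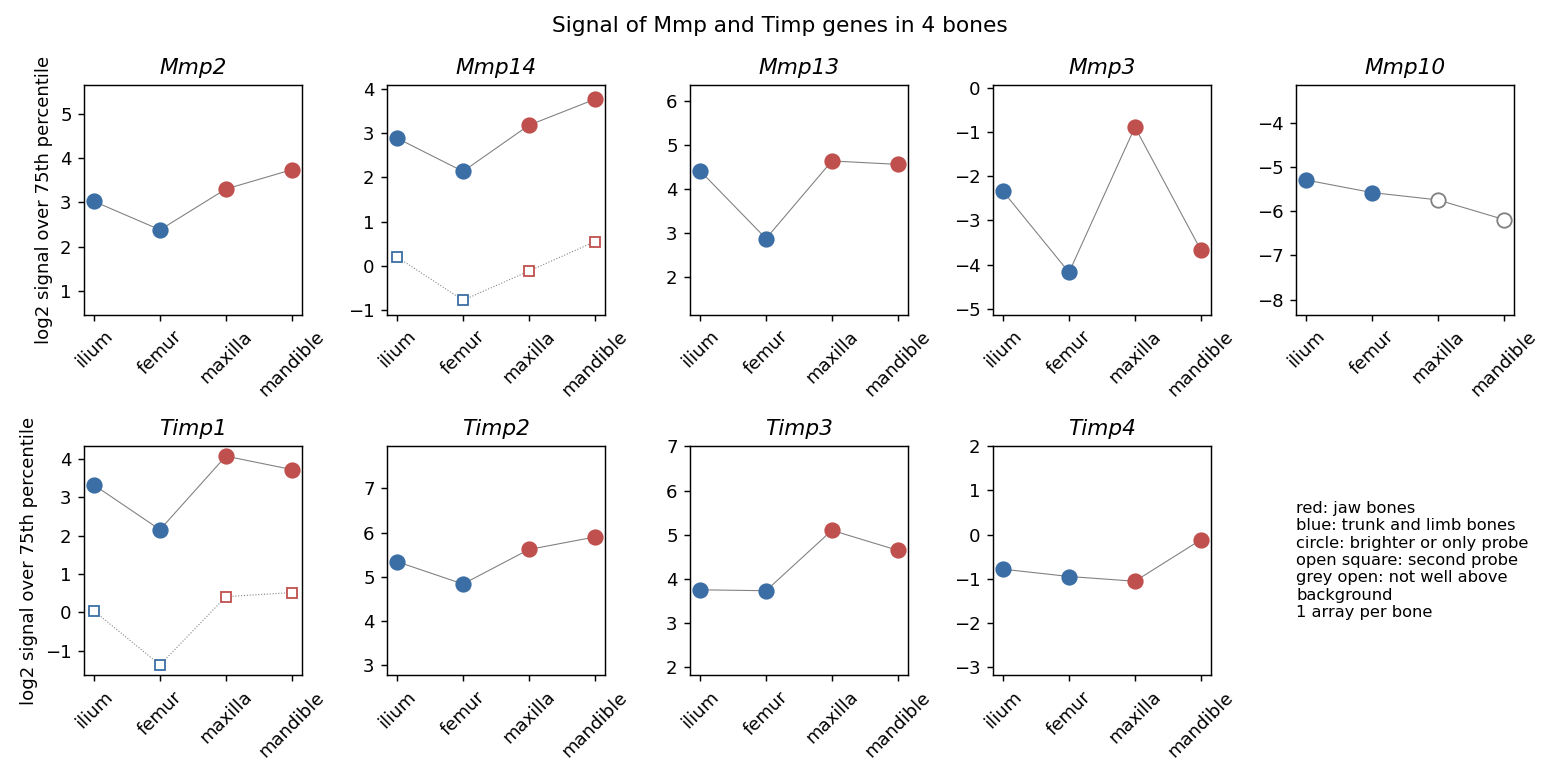
Log2 signal over the 75th percentile of the array (y axis) of the 9 genes in the 4 bones (x axis), 1 array per bone, each panel with its own axis. Circles are the brighter or only probe and open squares the second probe of Mmp14 and Timp1, lines join the values of a probe, and grey open circles were not well above background. The femur was lowest in 7 panels, Mmp3 ran from -4.18 to -0.89, and in the Timp3 panel the jaw bones lay at 4.65 and 5.10 and the other bones at 3.73 and 3.75.

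Between the classes, 8 of the 9 genes had a higher mean in the jaw bones, but none passed the limma test. Their median difference (jaw minus trunk and limb) was 0.95 on the log2 scale, beside -0.03 over all 20616 genes tested. The 9 were chosen with earlier results of these data known, so this and later comparisons with all genes describe a chosen set. The 13 other Mmp genes tested had a median difference of -0.05. Limma (Benjamini-Hochberg adjusted p under 0.05) called 0 of the 9 higher, beside 4.51% of all genes, and 0 lower, beside 7.25%, and 1 of the 9, Timp3, had an unadjusted p under 0.05. The standard error rests on how far the 2 bones of a class differ, so no p-value here covers variation from mouse to mouse, and an exact permutation of 2 bones against 2 could not go below p = 0.333. By distance alone, none had its classes at least 2-fold apart with no overlap, beside 9.34% of all genes in the direction of the jaw and 9.82% in the other. In bulk samples like these, fewer cells of a type and less RNA per cell cannot be told apart.

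Timp3, the matrix-bound inhibitor that also blocks several ADAM and ADAMTS proteases, had the widest gap between the classes. Its log2 signal, from the probe at chr10:85778750-85778809 (mm8), was 5.10 (maxilla), 4.65 (mandible), 3.75 (ilium) and 3.73 (femur). Both jaw bones lay above both others, and the smallest distance between the classes was 0.89, or 1.86-fold. The jaw mean was 2.19-fold higher, a difference of 1.13 ± 0.25 (SE, 2 bones per class; limma adjusted p = 0.069). Without the maxilla the difference was 0.90 (adjusted p = 0.0418) and without the mandible 1.36 (adjusted p = 0.0165), whereas without the ilium or the femur the adjusted p was 0.355 and 0.467. With a jaw bone left out, the lone jaw sample was assumed to vary like the other class, and the gene's own spread came only from the ilium and femur, which differed by 0.02, so these p-values take no account of the distance between the jaw bones. Over all settings it ran from 0.0165 to 0.467.

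Timp1, an inducible secreted inhibitor, was lowest in the femur by both probes. By the brighter probe (chrX:20031508-20031566, mm8) it stood at 4.07 (maxilla), 3.72 (mandible), 3.31 (ilium) and 2.15 (femur). The jaw bones were the higher bones, yet the ilium lay only 0.40 below the mandible while the femur lay 1.16 below the ilium. The difference of 1.16 ± 0.48 (2.23-fold, adjusted p = 0.189) was 0.58 without the femur and 1.74 without the ilium. The second probe (chrX:20029738-20029797) stood at 0.52 (mandible), 0.41 (maxilla), 0.04 (ilium) and -1.36 (femur), a class difference of 1.13.

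Timp2, which is part of the surface complex that activates Mmp2, gave (chr11:118117922-118117981, mm8) 5.90 (mandible), 5.62 (maxilla), 5.34 (ilium) and 4.84 (femur). The jaw mean was 1.59-fold that of the other bones, a log2 difference of 0.67 ± 0.28 (adjusted p = 0.195). Timp4, the inhibitor known mainly from heart and other muscle, gave (chr6:115211721-115211780, mm8) -0.12 (mandible), -0.78 (ilium), -0.95 (femur) and -1.06 (maxilla). Its mandible value was the highest and its maxilla value the lowest, so the classes overlapped, and the class difference was 0.28 ± 0.40 (adjusted p = 0.652). Without the mandible that difference was -0.19. The summed signal of 6 skeletal muscle markers, each well above background in every bone, was also lowest in the maxilla, at 94.0 against 540 (mandible), 704 (femur) and 717 (ilium), and its part in the Timp4 values was not tested.

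Mmp2, the gelatinase that cuts denatured and basement membrane collagen, and its activator Mmp14 had the same order of bones. Mmp2 (chr8:95742069-95742128, mm8) stood at 3.74 (mandible), 3.30 (maxilla), 3.02 (ilium) and 2.38 (femur). Mmp14, the membrane-bound collagenase (chr14:53395337-53395396), stood at 3.77 (mandible), 3.18 (maxilla), 2.89 (ilium) and 2.14 (femur). Timp2 followed this order as well, so that the 3 genes of the surface complex each ran mandible, maxilla, ilium, femur. The order was not particular to them. All osteoblast and osteocyte markers on the array but Sost ran the same way, as did the matrix genes Dcn and Col5a2. The share of all genes with this order was not counted. The jaw mean of Mmp2 was 1.77-fold higher, a log2 difference of 0.82 ± 0.34 (adjusted p = 0.189), and that of Mmp14 was 1.95-fold higher, a difference of 0.96 ± 0.40 (adjusted p = 0.186). The second Mmp14 probe (chr14:53394143-53394202) stood at 0.55 (mandible), 0.20 (ilium), -0.12 (maxilla) and -0.78 (femur), so that the ilium lay above the maxilla, and its class difference was 0.51 (1.42-fold).

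Mmp13 was alike in 3 bones and lower in the femur. It stood (chr9:7282762-7282821, mm8) at 4.64 (maxilla), 4.56 (mandible), 4.41 (ilium) and 2.88 (femur). The 3 higher bones lay within 0.22 of each other, and the femur lay 1.53 below the nearest of them. The class difference of 0.95 ± 0.59 (adjusted p = 0.331) was 0.19 without the femur and 1.72 without the ilium.

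Mmp3, a stromelysin with a broad range of substrates that can also activate other proenzymes, had the widest range of the 9 over the bones. It stood (chr9:7455751-7455810, mm8) at -0.89 (maxilla), -2.35 (ilium), -3.67 (mandible) and -4.18 (femur), a 9.78-fold range. The high and the low bones were split across the classes, and the class difference was 0.98 ± 1.23 (adjusted p = 0.609). It was -0.41 without the maxilla, 2.37 without the mandible, 0.07 without the femur and 1.90 without the ilium. Mmp10, the other stromelysin (chr9:7510011-7510070), was dim throughout, at -5.29 (ilium), -5.58 (femur), -5.74 (maxilla) and -6.19 (mandible), and neither jaw value was well above background. The measured mean of the trunk and limb class was 1.44-fold that of the jaw class (limma adjusted p = 0.254). Both jaw values lay above the dimmest detected signal of their arrays, so this is the measured ratio near background and no lower limit. Folds given below as at least a value are bounds. In a bound a dim value enters as measured, or as the dimmest detected signal of its array where that is brighter. With normexp background correction the difference turned from -0.53 to 0.07.

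**Figure D2:**
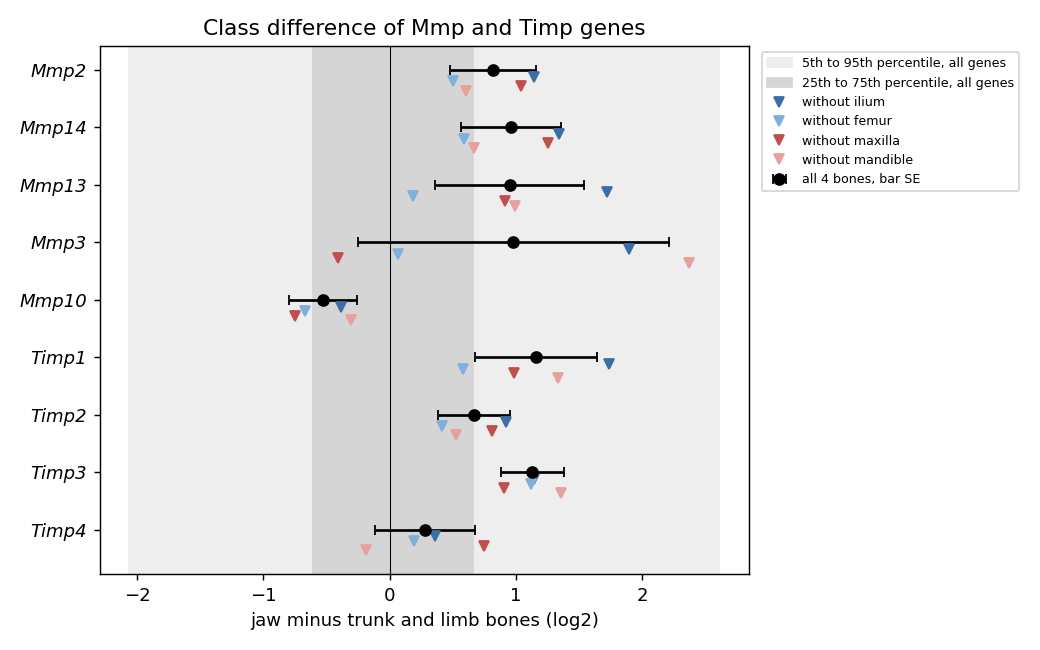
Difference between the mean log2 signal of the jaw bones and that of the trunk and limb bones (x axis) for the 9 genes (y axis), with the standard error from limma over 4 bones as bars. Triangles give the difference with 1 bone left out, and the bands show the 25th to 75th and the 5th to 95th percentile of all tested genes. Each of the 9 points lies within the 5th to 95th percentile of all genes (-2.06 to 2.61), and the Mmp3 triangles run from -0.41 to 2.37.

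How far the jaw bones stood above the others depended on the scaling. With the 75th percentile, both jaw bones were above both others for 6 of the 9 genes, at any distance, beside 31.9% of all genes. With median centring and with the deposited series table this held for 2 of the 9, Timp1 and Timp3, beside 22.2% of all genes under each. Under both scalings the maxilla lay below the ilium for Mmp2, Mmp13, Mmp14 and Timp2, and maxilla minus ilium was -0.11 for Mmp2 with median centring. These scalings moved the median class difference of all genes from -0.03 to -0.28. The 8 osteoblast and osteocyte markers had a median class difference of 1.12 with 0 of 8 called, and their part in the jaw values was not tested.

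The femur was the lowest bone for 7 of the 8 genes that were well above background everywhere, all but Timp4, whereas it was lowest for 26.3% of all genes so measured. This count, that of both jaw bones above both others and that of genes 2-fold higher in the ilium were chosen after the values had been seen. It held for the same count under quantile normalization, median centring and the deposited series table, and for 6 genes with normexp, where Timp3 was lowest in the ilium. The Timp3 values of ilium and femur differed by 0.02, less than the spread between repeated spots.

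In the comparison of ilium and femur, which has 1 array each and no test, the ilium was higher for all 9 genes, with a median difference of 0.64 beside -0.05 over all genes. Mmp3 was 3.56-fold higher in the ilium, Mmp13 2.89-fold and Timp1 2.23-fold. These 3 of 9 genes were at least 2-fold higher in the ilium, beside 2.27% of all genes, and none was 4-fold higher, beside 0.519%. The median absolute difference between ilium and femur was 0.19 over all genes. A difference as large as that of Mmp13 (1.53) was reached by 0.98% of tested genes, and one as large as that of Mmp3 (1.83) by 0.674%. Mmp14 was 1.68-fold higher by its brighter probe and 1.97-fold by the second, Mmp2 1.56-fold and Timp2 1.42-fold. Mmp10 and Timp4 had ratios of 1.22 and 1.12, and the Timp3 difference was 0.02.

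Skeletal and fat cell markers differed between ilium and femur in the same direction. The summed signal of 8 cartilage markers was 36.8 times the 75th percentile in the ilium and 5.37 in the femur, with 7.32 in the maxilla and 8.67 in the mandible. Col10a1, the collagen of hypertrophic cartilage, stood at -1.96 in the ilium and was not well above background in the femur or the mandible, nor were Matn1 and Matn3 there, and neither of these last was in the maxilla. Col10a1, Matn1 and Matn3 were singled out after their values were seen. The 8 osteoclast markers summed to 84.1 in the ilium and 26.1 in the femur (33.3 and 40.8 in maxilla and mandible), and the 8 osteoblast and osteocyte markers to 40.5 and 25.4 (53.3 and 77.5). The 6 adipocyte markers differed in the same direction, with sums of 98.7 (ilium), 51.6 (femur), 19.6 (maxilla) and 45.6 (mandible), and 1 of them was not well above background in each bone but the ilium. All osteoclast, osteoblast and osteocyte markers were well above background in each bone. The part of the cartilage, osteoclast, osteoblast and adipocyte markers in the Mmp13, Mmp3 and Timp1 differences was not tested. In the mandible, where Mmp13 was at 4.56, Col10a1 was not well above background, while Col2a1 (2.58), Acan, Ihh, Epyc and Comp were. The part of cartilage in that Mmp13 value was not tested either.

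In the comparison of maxilla and mandible, also 1 array each with no test, Mmp3 was 6.88-fold higher in the maxilla. It was the 1 of 9 genes that was 4-fold or more higher there, beside 6.3% of all genes, and a difference as large (2.78) was reached by 4.05% of tested genes. The other 8 genes differed by less than 2-fold with this scaling, but the Timp4 difference was -1.02 with quantile normalization, -1.19 with median centring and -1.22 with the series table, past 2-fold. Timp4 was 1.92-fold higher in the mandible, Mmp2 1.35-fold and Timp2 1.22-fold, and the Mmp14 difference (maxilla minus mandible) was -0.59. Timp3 was 1.37-fold higher in the maxilla by signal and Timp1 1.27-fold, though the second Timp1 probe gave 0.929 for the same ratio. The Mmp13 ratio was 1.06, and its direction turned with median centring and the series table, where the mandible was higher. The maxilla sample also held nasal and salivary transcripts, whose 7 markers summed to 519 there and 0.53 in the mandible, each well above background in both, and whose part in the Mmp3 difference was not tested. In the other bones these markers summed to 0.511 (ilium) and 0.194 (femur), with 1 (ilium) and 4 (femur) of the 7 not well above background.

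**Figure D3:**
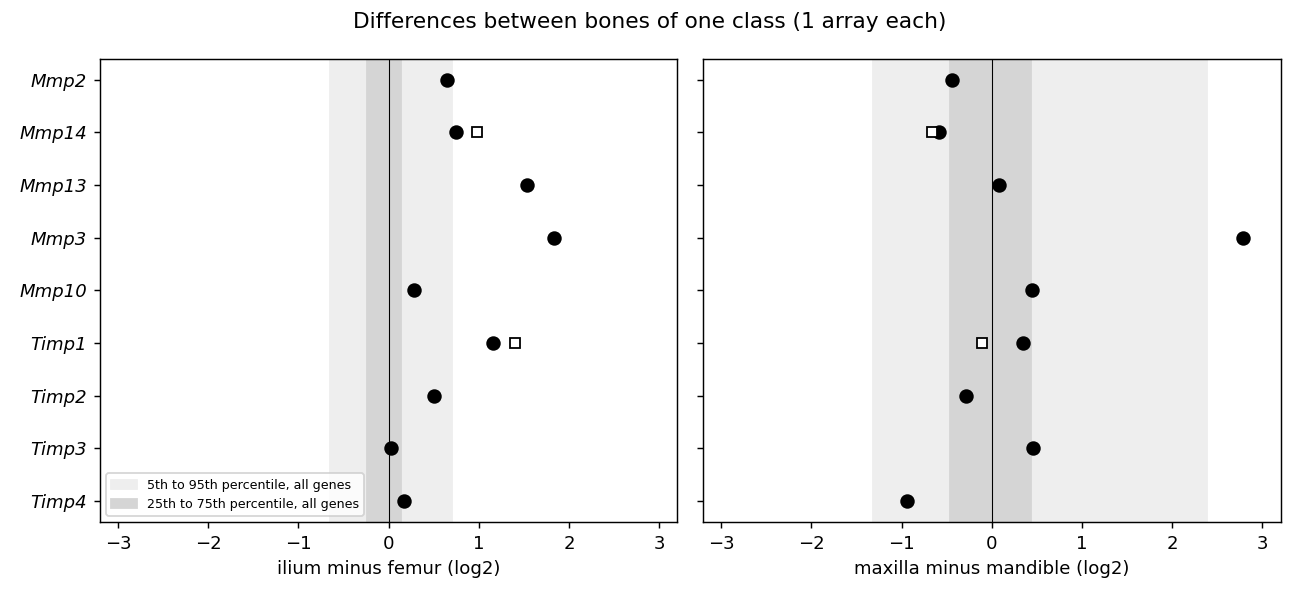
Difference in log2 signal between the bones of 1 class for the 9 genes, ilium minus femur on the left and maxilla minus mandible on the right, 1 array per bone with no error estimate. Filled circles are the brighter or only probe, open squares the second probe, and the bands the 25th to 75th and 5th to 95th percentile of all tested genes. On the left all points lie at or above 0.02 and Mmp3, Mmp13, Timp1 and Mmp14 lie beyond the upper band edge of 0.70, and on the right only Mmp3, at 2.78, lies beyond its band.

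The rest of the metalloproteinase family was read from a list of 18 further Mmp genes, of which 16 were on the array under these names and 13 were tested. Of the 13, limma called 1 higher in the jaw bones and 3 lower, beside 4.51% and 7.25% of all genes, and their median difference was -0.05. Mmp20, the enamel protease, was at -0.72 (maxilla) and 2.27 (mandible) and not well above background on either other array, and was at least 154-fold higher in the jaw bones (adjusted p = 0.0333). Mmp8, the collagenase of neutrophils, was 5.92-fold lower in the jaw bones, a difference of -2.57 ± 0.43 (adjusted p = 0.0471). Mmp25, a membrane-anchored metalloproteinase of leukocytes, was 7.44-fold lower (-2.90 ± 0.42, adjusted p = 0.0381). Mmp9, the gelatinase of osteoclasts and myeloid cells, was 3.33-fold lower (-1.74 ± 0.30, adjusted p = 0.0474).

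The summed blood and tooth markers differed between the classes in the same direction as these genes, and their part was not tested. The 6 neutrophil and myeloid precursor markers summed to 437 (ilium), 431 (femur), 203 (maxilla) and 116 (mandible), with 4 of 6 called lower in the jaw, and all were well above background in each bone. Of these, Ltf was highest in the maxilla, at 7.30 against 7.16 (femur), 7.13 (ilium) and 5.26 (mandible). The other markers of this list were each lower in the maxilla than in the mandible, opposite to the sums. Of the 7 tooth matrix genes, 3 (ilium) and 4 (femur) were not well above background, and 3 were called higher in the jaw. Genes of the chromosome 9 cluster, which also holds Mmp8, Mmp12, Mmp20 and Mmp1a, were high in different bones. Mmp8 was higher in the ilium and femur, Mmp20 in both jaw bones and Mmp3 in the maxilla, and Mmp12 and Mmp1a were not well above background in any bone.

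**Figure D4:**
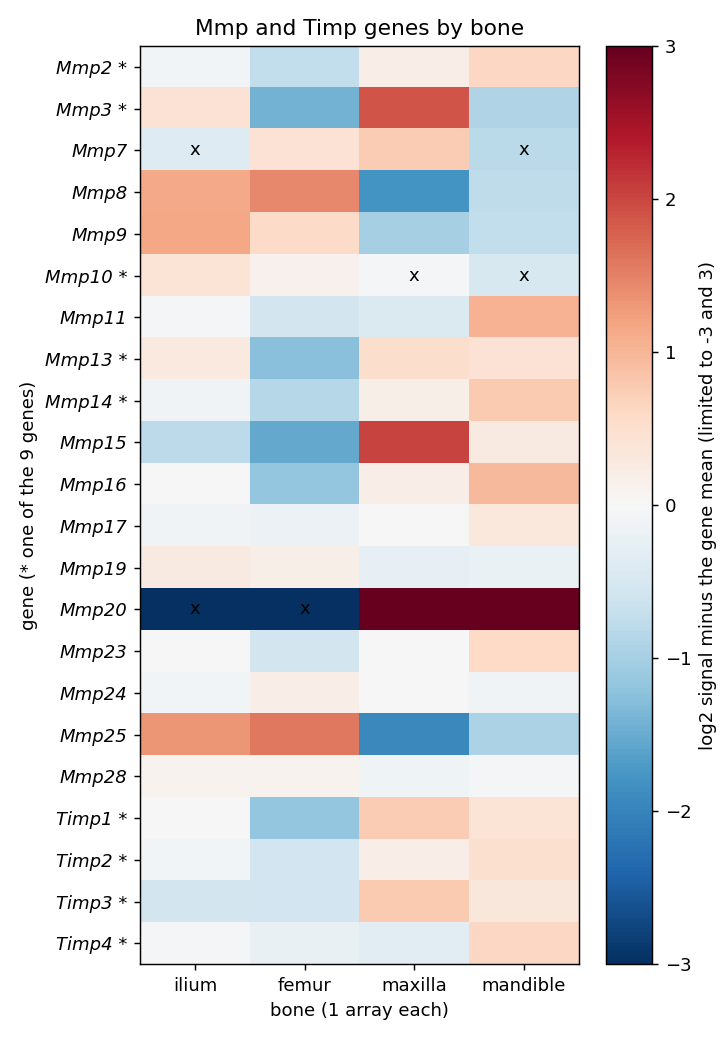
Log2 signal of 22 tested Mmp and Timp genes (rows, with the 9 genes starred) in the 4 bones (columns, 1 array each), each as the difference from the gene's own mean over the bones, with colours limited to -3 and 3. A cross marks a value not well above background. Mmp8, Mmp9 and Mmp25 are red in the ilium and femur, and Mmp20 in the jaw bones. The femur is blue for the starred Mmp2, Mmp3, Mmp13, Mmp14, Timp1, Timp2, Timp3 and Timp4, though Timp4 is lower in the maxilla. It is blue also for genes without a star, among them Mmp11, Mmp15, Mmp16 and Mmp23.

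The 15 matrix genes tested whose products these enzymes cut had a median class difference of 0.32. Of 6 epithelial markers tested, 5 were called higher in the jaw and 0 lower. The 7 stratified epithelium genes on the array summed to 61.0 (maxilla), 78.8 (mandible), 4.27 (ilium) and 4.36 (femur), with 2 (ilium), 2 (femur) and 1 (mandible) of 7 not well above background. Col3a1, a fibrillar collagen of soft connective tissue, stood at 6.77 (maxilla), 6.28 (mandible), 5.33 (ilium) and 5.24 (femur) (1.24 ± 0.26, adjusted p = 0.0643). Col3a1 and Timp3 had the same order of bones, but the ilium and femur values of Timp3 differed by only 0.02. Timp1, Mmp13 and the fibroblast and ligament marker Postn had this order too, and its share among all genes was not counted. Of the 8 fibroblast and ligament markers, which summed to 133 (maxilla), 93.5 (mandible), 40.1 (ilium) and 36.0 (femur), 1 was called higher and 0 lower, all were well above background in each bone, and their part in the Timp3 difference was not tested.

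Genes that activate or restrain metalloproteinases gave 0 higher and 1 lower call among 16 tested, beside 4.51% and 7.25% of all genes. Their median difference was 0.42. The called gene was Plaur, the urokinase receptor, which stood at 2.16 (ilium), 2.37 (femur), -0.05 (maxilla) and 0.40 (mandible) (a difference of -2.09 ± 0.26, adjusted p = 0.0342). Plat, tissue plasminogen activator, stood at 1.51 (maxilla), -0.08 (mandible), -2.01 (ilium) and -2.51 (femur) (2.97 ± 0.64, adjusted p = 0.0656).

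For the 2 genes with the widest range over the bones among those well above background in all, the genes of nearest profile were taken from 18403 such genes, by the Euclidean distance between log2 profiles centred on their own mean. With 4 bones, 1 array each, near profiles are easily found among so many genes, and the distances only describe these arrays. Those of Timp1 included Kank1 (distance 0.121) and Creb3l1 (0.181). For Mmp3 they were Adora1 (0.654), Cyp2e1 (0.729) and a transcript with no gene symbol (0.738).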

How the data were processed

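The deposited scanner files give the intensity of each spot, unlogged, as made with Agilent Feature Extraction 9.5.3.1, background-subtracted and spatially detrended, per the file headers and the submitters' processing notes. The deposited series table holds log2 values relative to the ilium array, made in GeneSpring, per the series text. The sources used here do not state its scaling constants. Probe positions refer to build mm8, per the file headers.

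From 43379 spots per array, outlier spots were left out, spots of a probe averaged, and the brightest probe of a gene used. The 20616 genes detected above background by 2 or more of the 4 arrays were fitted with limma 3.58.1 in R 4.3.3 (lmFit, eBayes, Benjamini-Hochberg over all genes tested, threshold 0.05, 2 residual degrees of freedom), and the script was tested on simulated data. Names came from the files and from RefSeq tables of GRCm38.p6. Genes were named by rule: the 9 genes, and from each other list the called genes and those of largest difference. Some genes that the rule selects, and the count of calls among matrix genes, are not reported here. The members and lists were chosen with earlier results of these data known. All arrays were labelled with 1 dye, and their number limits the precision. Alternatives covered background correction, scaling, filters, probe choice, outlier spots and each bone left out.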

Additional observations from a re-analysis of the deposited data

How the results depend on the processing

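The filters, the outlier setting and the fit over all probes used the same member values, so they could not change a class difference. The mean of a gene's probes could change it only for Mmp14 and Timp1. As none of the 9 genes was called at first, keeping its side of the limma threshold meant staying uncalled. Over 13 alternatives each (12 for Mmp10, which the filter on all 4 arrays removed), the class differences of the 9 genes kept their direction and their side of the limma threshold in 111 of 116 cases. The exceptions were the Timp3 calls without a jaw bone, where the spread came from the ilium and femur alone, and differences that turned for Mmp3 without the maxilla (-0.41), Mmp10 with normexp (0.0705) and Timp4 without the mandible (-0.19). The count of genes called higher in the jaw was 929, and 600 with quantile normalization, 603 with median centring, 575 with the series table, 396 with no filter and 1534 over all probes. The count called lower was 1494, and 724 with no filter and 2455 over all probes. With 1 bone left out these counts ran from 0 to 4045 and from 0 to 4159. The 0 of both came without the ilium (3550 genes at an unadjusted p under 0.05) or the femur (2628), and without the maxilla the counts were 2966 and 3200. The share of calls that were higher was 38.3%, but 26.8% with median centring and 27.2% with the series table, and without the maxilla or mandible 48.1% and 49.3%. Genes 4-fold or more apart fell from 1749 to 1093 between maxilla and mandible and from 130 to 35 between ilium and femur with normexp. Both jaw bones were above both others for 2 genes with median centring and with the series table. Causes were not tested. With 1 bone left out the Mmp3 difference ran from -0.41 to 2.37 and that of Timp4 from -0.19 to 0.75. No paired analysis was possible because each bone had 1 sample and the labels carry no replicate numbers.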

Other observations

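The ADAM and ADAMTS genes are relatives of the metalloproteinases, of which Timp3 inhibits several. Of 24 tested, limma called 1 higher in the jaw bones and 0 lower, beside 4.51% and 7.25% of all genes. Their median difference was 0.52. Adamts16 was at -1.75 (maxilla) and -2.07 (mandible) and not well above background on either other array, and was at least 24.0-fold higher in the jaw (adjusted p = 0.0325). Adamts19, chosen after its values were seen, was at -3.75 (maxilla) and 0.13 (mandible), likewise not well above background on the ilium and femur arrays, and was at least 25.7-fold higher in the jaw, though it did not pass the threshold (adjusted p = 0.0648). Adamts9, which cleaves aggrecan and versican, stood at 1.93 (mandible), 0.41 (maxilla), 0.14 (ilium) and -0.95 (femur) (adjusted p = 0.213). Adam8, a myeloid membrane protease, stood at 5.02 (femur), 4.64 (ilium), 4.46 (maxilla) and 2.15 (mandible) (adjusted p = 0.3).

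Of 15 genes of AP-1 and of known inducers of metalloproteinase transcription, 1 was called higher in the jaw and 2 lower. The shares over all genes were 4.51% and 7.25%. The median difference of the 15 was -0.10. Pthlh, encoding parathyroid hormone-related protein, was 13.6-fold higher in the jaw (3.77 ± 0.26, adjusted p = 0.0325). The cytokine gene Osm was 4.15-fold lower (-2.05 ± 0.22, adjusted p = 0.0325), and Il6, not well above background on either jaw array, was at least 3.61-fold lower there (adjusted p = 0.0363).

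Of the marker lists not given above, 6 macrophage markers had 0 calls and a median class difference of -0.83, and 5 blood vessel markers had 0 calls and a median of -0.33. Of 5 adipocyte markers tested, 2 were called lower in the jaw, with a median of -1.51.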
